A study of Homo sapiens with 18 samples.

Results

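The MYC, MAX and MXD network is a set of basic helix-loop-helix leucine zipper transcription factors that bind DNA as dimers. It was taken here as 10 genes, listed by symbol, around MYC, whose mRNA was already known to fall in only 1 of the lines in these data: MYC, MAX, MXD1, MXD3, MXD4, MXI1, MNT, MGA, MLX and MLXIP. All 10 were found in the tables of both cell lines and all 10 passed the filter on low values, out of 14726 genes tested in MCF10A and 14527 genes tested in hTERT RPE-1.

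PolyA+ RNAseq was performed on 18 libraries, 3 from each of 6 groups. MCF10A, a non-tumorigenic human breast epithelial cell line, and hTERT RPE-1, a human retinal pigment epithelial cell line immortalised with telomerase, were each transfected with a non-targeting siRNA (siNT), a mimic of hsa-miR-28-5p (miR-28) or a mimic of hsa-miR-708-5p (miR-708) at 30 nM and collected after 72 h. A mimic is a synthetic double-stranded RNA that supplies the mature microRNA in excess, so each group reports on a cell with forced microRNA excess and not on the microRNA's own level. Each line is a single established line, the replicates were labelled as biological, and the p-values measure the spread between these cultures. In bulk RNA, fewer cells of a type and less RNA per cell cannot be told apart.

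MYC forms a dimer with MAX, binds the E-box sequence CACGTG and activates genes for growth, including those for ribosome biogenesis. The MXD proteins, MXI1, MNT and MGA compete for MAX and, as dimers with it, repress through the same sequence, the MXD proteins and MXI1 by way of the SIN3 histone deacetylase corepressor. MLX is a MAX-like partner that pairs with MXD1, MXD4, MNT and with the glucose-sensing factor MLXIP, also called MondoA. MYC mRNA and protein are both short-lived, and the level of MYC is known to set the rate of ribosome production in dividing cells.

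The mature microRNAs are shown because they carry the same seed, the bases that pair with a target. Capitals mark the seed, bases 2 to 8 counted from the 5′ end.
hsa-miR-28-5p: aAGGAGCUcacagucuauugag
hsa-miR-708-5p: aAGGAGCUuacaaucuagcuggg
The first 8 bases were identical, and 16 of 22 aligned positions were identical when both were read from the 5′ end. The complementary sequence in an mRNA was searched on the sense strand as a 7mer-m8 (AGCTCCT, pairing with bases 2 to 8), a 7mer-A1 (GCTCCTA) or a 6mer (GCTCCT), each site being counted once as its longest form. No 8mer (all 7 pairing bases followed by an A) was found in a member.

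Among the members, MAX, MLX and MXD4 held a 7mer in the annotated 3′UTR of the canonical transcript (GENCODE 44, hg38), and MLXIP held one in its coding sequence. The 7mer sites of these 4 genes are shown with flanking bases, read along the mRNA, and capitals mark the seed match.
MAX 7mer-m8: cctgcccaccctaccAGCTCCTcca
MAX 7mer-A1: aaaaagctatgtatcGCTCCTAttg
MLX 7mer-m8: ctggacaccccaaagAGCTCCTgcc
MXD4 7mer-m8: cctggatccccctctAGCTCCTgct
MLXIP coding 7mer-m8: agcttcggcaagactAGCTCCTgcc
The MAX sites lay at chr14:65076132-65076138 and chr14:65075931-65075937 on the minus strand, in exon 5 of 5, at bases 338 and 539 of a 3′UTR of 1349 bases. The MLX site lay at chr17:42571895-42571901 on the plus strand, in exon 8 of 8, at base 292 of 1600. The MXD4 site lay at chr4:2249731-2249737 on the minus strand, in exon 6 of 6, at base 807 of 3112. The MLXIP site lay at chr12:122079199-122079205 on the plus strand, in exon 1 of 17, and its 3′UTR of 5532 bases held 5 6mers and no 7mer. Beside their 7mers, the 3′UTRs of MXD4 and MLX held 4 and 1 6mers. Single 3′UTR 6mers were found in MYC, MXD1, MNT and MGA, and no match was found in the 3′UTR of MXD3 or MXI1. Single 6mers were also found in the coding sequences of MYC, MGA, MXD3 and MLXIP. A 7mer or longer match was present in the 3′UTR of 3 of 10 members (30.0%) and in that of 18.7% of the genes tested in either line. The median 3′UTR length was 2519 bases for the members and 1349 bases for the genes tested in MCF10A, and a longer 3′UTR has more room for a match.

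**Figure D1:**
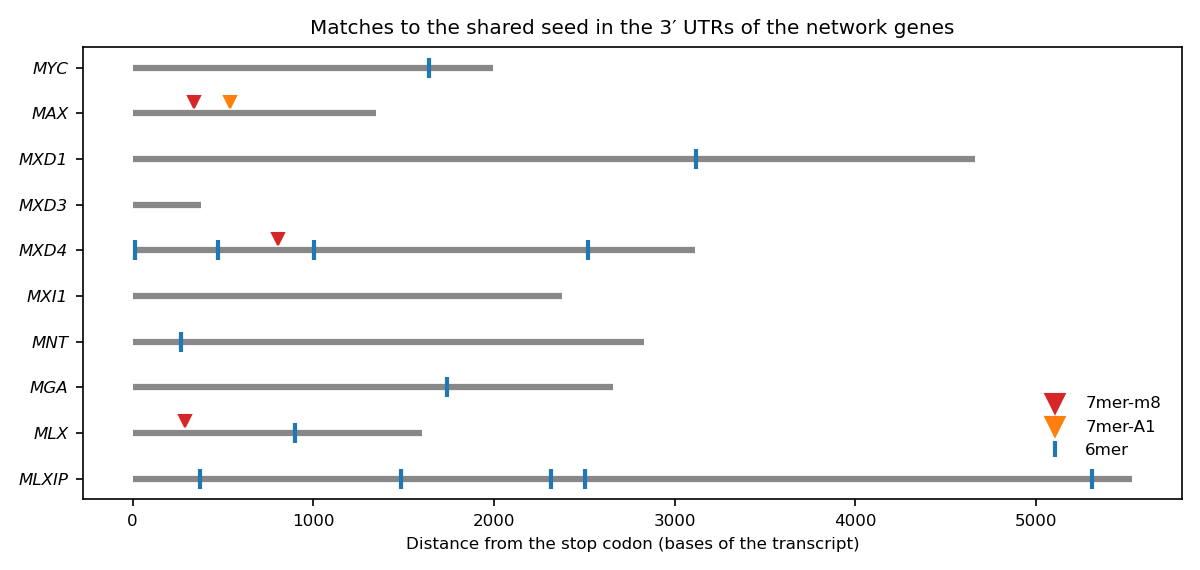
Seed matches along the 3′UTR of each member, drawn to scale from the stop codon in bases, with the kind of match given by the marker. MAX, MLX and MXD4 held 7mer matches, and the 3′UTRs of MXD3 and MXI1 held none.

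Depth was estimated from the step between low values at 19400000 to 31700000 reads per library in MCF10A and 23800000 to 40300000 in RPE-1, and the level that 3 reads correspond to was at most 4.40 normalised counts, below every value of a member. RPS28, a ribosomal protein mRNA, was taken as the check of the mimics. In MCF10A, siNT libraries held 3589, 3960 and 4062 normalised read counts of RPS28 and mimic libraries between 500 and 785. In RPE-1, RPS28 was between 2892 and 3465 in siNT and between 123 and 184 in mimic libraries. Markers of breast epithelium were all listed in MCF10A (8 of 8). In RPE-1, 5 of 7 markers of retinal pigment epithelium were listed and RPE65 and TYR, which define that cell type, were not among the genes listed. One library stood apart: ribosomal RNA genes took 15.1% of the reads in the first miR-28 replicate in RPE-1 and 4.23 to 7.20% in the other RPE-1 libraries. Without it, the log2 fold changes with miR-28 in RPE-1 were −0.06 for MYC, −0.15 for MLX, −0.33 for MXD3, −0.07 for MXD4 and 0.23 for MNT (limma adjusted p = 0.832, 0.302, 0.275, 0.762 and 0.16), which like the values with it did not pass. The other members are given without it beside their results.

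Levels of cell type markers moved with the mimics. In MCF10A, the summed level of 8 breast epithelial markers was 164462 to 180537 in siNT, 107704 to 118238 with miR-28 and 83074 to 106913 with miR-708, and 3 and 4 of the 8 fell. The 4 mesenchymal markers summed to 23732 to 40891, 22022 to 65268 and 38203 to 88297 in the same groups. In RPE-1, the 5 listed markers of retinal pigment epithelium summed to 2935 to 3729 in siNT, 1933 to 2064 with miR-28 and 2097 to 2259 with miR-708. Of these 5 markers, 3 fell and 2 rose with miR-28 and 2 fell and 1 rose with miR-708. The sum rested on MITF and OTX2 (siNT means of 1908 and 951, and 1093 and 646 with miR-28), while the mean of RLBP1 went from 2.4 to 13.0 and that of BEST1 from 165.5 to 230.4 with miR-28. Mesenchymal markers in RPE-1 summed to 1218526 to 1904683 in siNT, 1429670 to 1827357 with miR-28 and 927813 to 1067875 with miR-708. Of the breast epithelial markers, 2 were listed in RPE-1. The mean of LAMB3 went from 262 in siNT to 486 with miR-28 and 1023 with miR-708. That of TP63 went from 25.3 to 26.2 and 10.7. Of the immune markers, PTPRC alone was listed in RPE-1, at 3.1 to 11.4 over all 9 libraries, and PTPRC was not among the 2 listed in MCF10A. Of those 2, the mean of CD14 was 376.9 in siNT, 198.4 with miR-28 and 292.8 with miR-708. The mean of LYZ was 5.1, 8.6 and 9.5. Of the endothelial markers, none was listed in RPE-1 and PECAM1 in MCF10A went from between 172.5 and 189.1 to between 67.0 and 95.4. Their part in the values of MYC and its partners was not tested.

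To place the members beside each other, normalised counts in siNT were divided by the length of the canonical transcript. In MCF10A, MYC had the highest level per length, at 3906 normalised counts per kb (3348 to 4267 over 3 libraries). MLX (765 per kb) and MAX (757 per kb) came next and overlapped over libraries. They were followed by MXI1 (474 per kb), by MXD1 (230 per kb) and MXD4 (219 per kb), whose values overlapped, and by MGA, MLXIP and MNT (156, 156 and 145 per kb), whose values overlapped too. MXD3 was lowest at 53.7 per kb. In RPE-1, MAX (594 per kb) and MXD4 (518 per kb) led and overlapped, and MYC stood sixth at 334 per kb (294 to 385), overlapping with MLX, MLXIP and MXI1. MNT, MGA, MXD1 and MXD3 closed the order at 131, 130, 72.3 and 63.2 per kb. MYC therefore exceeded MAX per length in every siNT library of MCF10A and was below it in every siNT library of RPE-1. The tables of both lines were normalised separately, and these levels are set side by side without a test between lines.

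MYC mRNA fell with both mimics in MCF10A. The siNT libraries held 12457, 15273 and 15877 normalised read counts of MYC. The miR-28 libraries held 7900, 8933 and 9110, and the miR-708 libraries 7879, 7623 and 6922. Every mimic library was below every siNT library, while the lowest miR-28 library was close to the highest miR-708 library. The fold was 0.597 with miR-28 (log2 fold change −0.74, 95% interval −0.998 to −0.49, limma adjusted p = 0.00169) and 0.516 with miR-708 (−0.95, interval −1.21 to −0.70, adjusted p = 0.000186). Both comparisons used the same siNT libraries. Between the mimics MYC differed by −0.21 on the log2 scale (miR-708 minus miR-28, interval −0.46 to 0.04, limma adjusted p = 0.408).

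MYC mRNA did not pass the test in RPE-1. The siNT libraries held 1433, 1096 and 1197 normalised read counts, the miR-28 libraries 1169, 1120 and 1253, and the miR-708 libraries 1439, 826 and 1281. The 3 groups overlapped, and the highest and the lowest RPE-1 values both belonged to miR-708. The log2 fold change was −0.07 with miR-28 (interval −0.47 to 0.34, limma adjusted p = 0.792) and −0.10 with miR-708 (interval −0.50 to 0.30, adjusted p = 0.648), and both turned positive, to 0.02 and 0.22, when the values were scaled to library size instead. The intervals left room for a fall smaller than those seen in MCF10A. The response of RPE-1 minus that of MCF10A was 0.68 (SE 0.216, adjusted p = 0.0294) for miR-28 and 0.85 (adjusted p = 0.00435) for miR-708, by a test of the difference over the limma fits of both lines. This contrast was the reason for choosing the network, so its test is no independent evidence. The difference for miR-28 lost its call when any of 6 libraries was left out (siNT replicate 8 or 9 or miR-28 replicate 7 of MCF10A, adjusted p = 0.0515, 0.0641 and 0.0503, and siNT replicate 2 or 3 or miR-28 replicate 3 of RPE-1, adjusted p = 0.0962, 0.0644 and 0.0749). The difference for miR-708 stayed between 0.69 and 1.09 and kept its call with each library left out in turn.

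**Figure D2:**
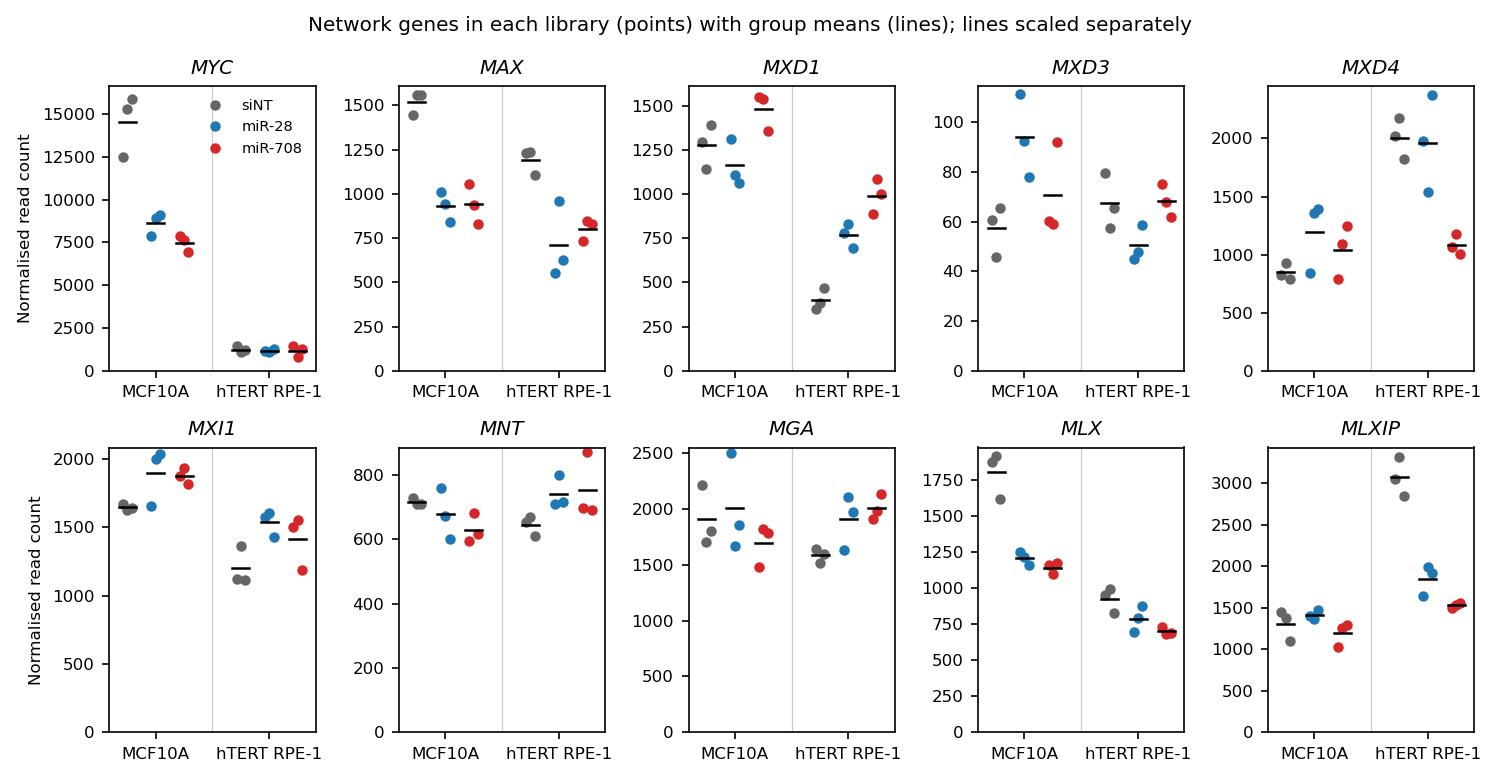
Normalised read count of each of the 10 members on a linear axis from 0, with 1 point per library and lines at the group means, for siNT, miR-28 and miR-708 in MCF10A and RPE-1. MYC in MCF10A fell from a siNT mean of 14535 to means of 8647 and 7475, while MXD1 in RPE-1 lay above all siNT libraries with both mimics.

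MAX, the common partner that MYC and its antagonists need to bind DNA, fell in both lines with both mimics. In MCF10A, the siNT libraries held 1445, 1560 and 1558 normalised read counts. The miR-28 libraries held 1014, 941 and 843, and the miR-708 libraries 1057, 940 and 829. In RPE-1, MAX was 1232, 1239 and 1109 in siNT, 555, 957 and 624 with miR-28, and 735, 848 and 830 with miR-708. No mimic library reached the siNT range in either line. The second miR-28 replicate of RPE-1 was the highest of the mimic libraries there. MAX fell by 0.71 and 0.70 on the log2 scale in MCF10A (limma adjusted p = 0.00204 and 0.00103 for miR-28 and miR-708) and by 0.78 and 0.57 in RPE-1 (adjusted p = 0.00385 and 0.0142). The fall with miR-28 in RPE-1 was 0.62 (adjusted p = 0.00845) without the library rich in ribosomal RNA. In RPE-1, the call for miR-708 was lost without its replicate 1 (adjusted p = 0.0534), and also with library size scaling (log2 fold change −0.25, adjusted p = 0.255). The response did not pass the test of a difference between the lines, at −0.07 (adjusted p = 0.828) for miR-28, or 0.08 (adjusted p = 0.793) without the library rich in ribosomal RNA, and 0.13 (adjusted p = 0.652) for miR-708.

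MLX, which carries the 7mer-m8 shown above, fell with both mimics in MCF10A. It was 1879, 1917 and 1621 in siNT, 1253, 1217 and 1164 with miR-28, and 1161, 1098 and 1173 with miR-708. The siNT libraries stood well above all 6 mimic libraries. MLX fell by 0.57 (limma adjusted p = 0.00242) and 0.65 (adjusted p = 0.000541) on the log2 scale. In RPE-1, MLX was 954, 998 and 828 in siNT, 697, 793 and 874 with miR-28, and 729, 686 and 692 with miR-708. The miR-28 libraries overlapped with siNT and did not pass the test (−0.24, adjusted p = 0.0991), while the miR-708 libraries lay below siNT (−0.40, adjusted p = 0.00896). Library size scaling took that last value to −0.08 (adjusted p = 0.599).

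MLXIP, the partner of MLX that responds to glucose, fell with both mimics in RPE-1. It was 3052, 3313 and 2848 in siNT, 1647, 1990 and 1917 with miR-28, and 1501, 1536 and 1557 with miR-708. Each mimic group lay below siNT without overlap, and the miR-708 libraries were all below the miR-28 libraries. The fold was 0.602 (log2 fold change −0.73, limma adjusted p = 0.000141) and 0.50 (−1.0, adjusted p = 7.91e-06). Without the library rich in ribosomal RNA the value for miR-28 was −0.65 (adjusted p = 0.000243). The direct difference between the mimics was −0.27 (adjusted p = 0.0626) and reached −0.35 (adjusted p = 0.0291) without the library rich in ribosomal RNA. In MCF10A, MLXIP was 1448, 1377 and 1096 in siNT, 1398, 1358 and 1470 with miR-28, and 1026, 1257 and 1290 with miR-708. These groups overlapped, with log2 fold changes of 0.12 (adjusted p = 0.529) and −0.13 (adjusted p = 0.458). The response in RPE-1 minus that in MCF10A was −0.85 (adjusted p = 0.000783) for miR-28 and −0.87 (adjusted p = 0.000198) for miR-708.

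MXD1, a repressor that replaces MYC on MAX when cells leave the cycle and differentiate, rose with both mimics in RPE-1. It was 349, 384 and 471 in siNT, 778, 832 and 697 with miR-28, and 886, 1085 and 1002 with miR-708. The 3 groups were fully separated in that order. The fold was 1.92 (log2 fold change 0.94, limma adjusted p = 0.000251) and 2.48 (1.31, adjusted p = 1.3e-05), while the direct difference between the mimics was 0.36 (adjusted p = 0.0722). That difference passed with library size scaling (0.60, adjusted p = 0.00932), without siNT replicate 3 (0.36, adjusted p = 0.0412) and without miR-28 replicate 2 (0.42, adjusted p = 0.0498), and was 0.37 (adjusted p = 0.122) without the library rich in ribosomal RNA. In MCF10A, MXD1 was 1292, 1142 and 1392 in siNT, 1313, 1108 and 1063 with miR-28, and 1550, 1536 and 1358 with miR-708. Both mimic groups overlapped with siNT, with log2 fold changes of −0.14 (adjusted p = 0.416) and 0.22 (adjusted p = 0.167), the latter becoming 0.36 (adjusted p = 0.0352) with library size scaling. The lines differed by 1.08 (adjusted p = 0.000214) for miR-28 and 1.09 (adjusted p = 5.2e-05) for miR-708. Leaving out the library rich in ribosomal RNA gave 0.93 (adjusted p = 0.000542) for miR-28 in RPE-1.

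MXD4, a repressor of the same family, fell in RPE-1 with miR-708 and not with miR-28. It was 2017, 2175 and 1821 in siNT, 1980, 1538 and 2372 with miR-28, and 1066, 1179 and 1003 with miR-708. The miR-28 libraries covered the whole siNT range and the miR-708 libraries lay below every other RPE-1 library. The fold with miR-708 was 0.541 (log2 fold change −0.89, limma adjusted p = 0.000348), and with miR-28 the log2 fold change was −0.05 (adjusted p = 0.804). The direct difference between the mimics was −0.84 (adjusted p = 0.0035), or −0.82 (adjusted p = 0.00841) without the library rich in ribosomal RNA. Both mimics carry the seed that matches the MXD4 3′UTR sites, and they differ in the bases after the seed. The part of the sites or of those bases in these values was not tested. In MCF10A, MXD4 was 821, 925 and 794 in siNT, 843, 1357 and 1389 with miR-28, and 794, 1088 and 1248 with miR-708. Replicate 7 was the lowest library of both mimic groups. With miR-28 it lay within the siNT range, and with miR-708 it was just below the lowest siNT library (793.8 against 794.2). The log2 fold changes were 0.47 (adjusted p = 0.117) and 0.28 (adjusted p = 0.314). With the replicate number as a block, which in MCF10A paired the libraries, the value for miR-28 passed (0.47, adjusted p = 0.0217), as it did without miR-28 replicate 7 (0.70, adjusted p = 0.0154). The lines differed by −1.17 (adjusted p = 0.000925) for miR-708.

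MXI1, which also represses with MAX and SIN3, was 1124, 1362 and 1115 in RPE-1 siNT and 1572, 1602 and 1431 with miR-28. These groups did not overlap and MXI1 rose (log2 fold change 0.36, limma adjusted p = 0.0322), a call that was lost without siNT replicate 1 or 3 or miR-28 replicate 1 or 2 (adjusted p = 0.106, 0.0929, 0.0649 and 0.0763). With miR-708, MXI1 in RPE-1 was 1498, 1550 and 1184 (0.23, adjusted p = 0.124), and passed with library size scaling (0.55, adjusted p = 0.00226) and without miR-708 replicate 3 (0.35, adjusted p = 0.0261). In MCF10A, MXI1 was 1666, 1627 and 1640 in siNT, 1654, 1999 and 2035 with miR-28, and 1872, 1933 and 1815 with miR-708. The miR-708 libraries were all above siNT, while neither log2 fold change, 0.20 and 0.19, passed the test (adjusted p = 0.16 for both). Library size scaling carried them to 0.31 (adjusted p = 0.0369) and 0.33 (adjusted p = 0.0205).

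MXD3, which is expressed in proliferating cells, was the rarest member. In MCF10A, it was 60.6, 45.7 and 65.5 in siNT, 111, 92.4 and 78.0 with miR-28, and 60.4, 59.2 and 91.9 with miR-708. In RPE-1, it was 79.3, 57.3 and 65.6 in siNT, 45.1, 47.9 and 58.7 with miR-28, and 75.1, 67.9 and 61.7 with miR-708. With miR-28, every MCF10A library was above siNT, and 2 of the 3 RPE-1 libraries lay below the siNT range. No comparison with siNT passed (log2 fold changes 0.70 and 0.28 in MCF10A, limma adjusted p = 0.0759 and 0.445, and −0.40 and 0.03 in RPE-1, adjusted p = 0.124 and 0.922). The lines differed for miR-28 by −1.11 (adjusted p = 0.02), and the call was lost without siNT replicate 8 or miR-28 replicate 7 of MCF10A or siNT replicate 1 of RPE-1 (adjusted p = 0.0634, 0.0519 and 0.0508).

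MNT and MGA are the large MAX partners, MNT the most widely expressed antagonist of MYC and MGA the DNA-binding subunit of the polycomb complex PRC1.6. In MCF10A, MNT was 729, 709 and 709 in siNT, 758, 672 and 600 with miR-28, and 593, 680 and 615 with miR-708, and MNT did not pass the test with either mimic (−0.09 and −0.19, limma adjusted p = 0.61 and 0.233). In RPE-1, MNT was 654, 668 and 610 in siNT, 709, 799 and 715 with miR-28, and 697, 870 and 691 with miR-708. All RPE-1 mimic libraries were above siNT by small margins that did not pass (0.20 and 0.22, adjusted p = 0.158 and 0.11). Library size scaling took the value for miR-708 to 0.54 (adjusted p = 0.00283), and the same scaling without ribosomal RNA genes took that for miR-28 to 0.32 (adjusted p = 0.037). MGA in MCF10A was 2212, 1706 and 1803 in siNT, 2495, 1666 and 1849 with miR-28, and 1478, 1821 and 1780 with miR-708, with overlap between all groups (0.06 and −0.17, adjusted p = 0.815 and 0.438). MGA in RPE-1 was 1637, 1513 and 1594 in siNT, 1634, 2107 and 1969 with miR-28, and 1904, 1979 and 2132 with miR-708. MGA rose with miR-708 (0.34, adjusted p = 0.0131, and adjusted p = 0.0544 without miR-708 replicate 3). With miR-28 it was 0.26 (adjusted p = 0.0564), or 0.37 (adjusted p = 0.00816) without the library rich in ribosomal RNA. For miR-708, the lines differed by 0.41 for MNT (adjusted p = 0.0471) and by 0.51 for MGA (adjusted p = 0.0349), and each call was lost with 1 or more libraries left out (adjusted p up to 0.137 and 0.12). Over all alternatives, the MNT call was lost in 12 and kept in 15, and the MGA call was lost in 6 and kept in 21.

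Counted over the members, 3 of 10 fell in MCF10A with each mimic (MYC, MAX and MLX) and none rose, where 12.0% and 17.3% of all genes tested fell and 10.7% and 15.5% rose with miR-28 and miR-708. In RPE-1, 2 fell (MAX and MLXIP) and 2 rose (MXD1 and MXI1) with miR-28, where 23.5% of all genes fell and 23.3% rose. With miR-708 in RPE-1, 4 fell (MAX, MLX, MLXIP and MXD4) and 2 rose (MXD1 and MGA), where 31.2% fell and 30.9% rose. The share of members called was therefore close to that of all genes in each comparison (22.7%, 32.8%, 46.8% and 62.1% of all genes). At an unadjusted p under 0.05, 2 members were higher in MCF10A with miR-28 and 0 with miR-708. The share of all genes at that threshold is not given, so unadjusted counts, here and below, have no background beside them. Between the mimics, 0 members passed limma's test in MCF10A, where 1.55% of genes did, and 1 member (MXD1, higher with miR-708) had an unadjusted p under 0.05. In RPE-1, MXD4 was lower with miR-708 and no other member passed, where 11.4% of genes were lower, 9.88% higher and 21.2% called in all. The response differed between the lines for 4 members with miR-28 and 6 with miR-708, where 23.4% and 39.8% of all genes tested in both differed (12.1% and 20.2% higher in RPE-1, 11.3% and 19.6% lower). The 3 libraries of siNT and of the mimic did not overlap for 4 and 5 members in MCF10A (41.8% and 46.6% of all genes) and for 5 and 7 members in RPE-1 (54.4% and 69.2%). Between the mimics the groups did not overlap for 3 members in MCF10A (20.0% of all genes) and 4 in RPE-1 (38.7%). The counts against siNT in MCF10A and the counts of line differences include MYC. Its contrast between the lines was the reason for choosing the network, so these counts are not independent of that choice.

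**Figure D3:**
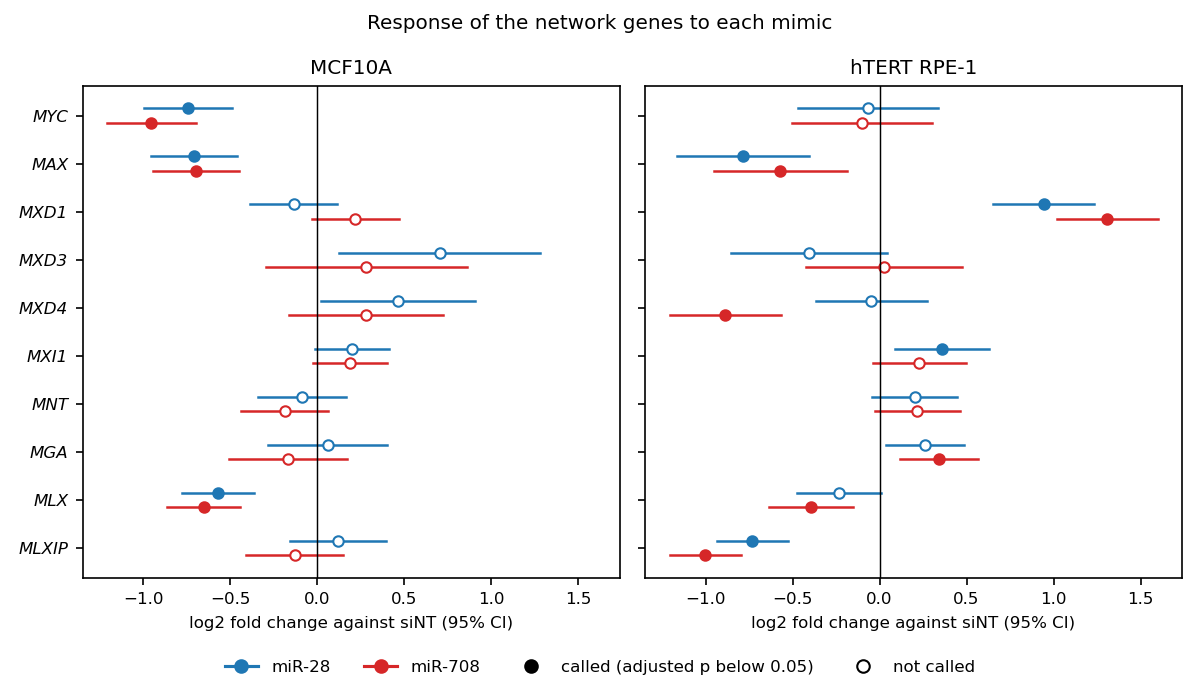
Log2 fold change against siNT of the 10 members for each mimic and line, with 95% intervals and filled markers where the limma adjusted p was below 0.05. MAX lay below 0 with an interval clear of it in all 4 comparisons, MYC in MCF10A only, and MXD1 above 0 in RPE-1 only.

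Because the members compete for MAX or MLX, ratios were formed within each library, where the scaling between libraries cancels. These are ratios of normalised counts, not of molecules, and their groups were compared by an exact permutation test, two-sided, whose smallest p for 3 against 3 is 0.1, so no ratio can pass a threshold of 0.05. MXD1/MYC was 0.104, 0.0748 and 0.0877 in siNT of MCF10A, 0.166, 0.124 and 0.117 with miR-28, and 0.197, 0.202 and 0.196 with miR-708. In RPE-1, it was 0.243, 0.351 and 0.393 in siNT, 0.665, 0.742 and 0.556 with miR-28, and 0.616, 1.31 and 0.782 with miR-708. The ratio of repressor to MYC mRNA was thus higher in every mimic library of both lines, by 1.52 and 2.25 times in MCF10A and 2.02 and 2.66 times in RPE-1 (exact permutation p = 0.1 for each). In MCF10A, the numerator did not pass the test and MYC fell, and in RPE-1, MXD1 rose and MYC did not pass the test. The fall of MYC in MCF10A was known when the network was chosen, so the ratio there is no independent evidence.

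MXD1/MAX went the same way, from between 0.732 and 0.894 in MCF10A siNT to between 1.18 and 1.64 with the mimics, and from between 0.283 and 0.425 in RPE-1 siNT to between 0.869 and 1.4. MYC/MAX in MCF10A was 8.62, 9.79 and 10.2 in siNT, 7.79, 9.49 and 10.8 with miR-28, and 7.45, 8.11 and 8.35 with miR-708. It overlapped with siNT for miR-28 and lay below it for miR-708. In RPE-1, MYC/MAX was 1.16, 0.884 and 1.08 in siNT and 2.11, 1.17 and 2.01 with miR-28, which lay above siNT, and 1.96, 0.973 and 1.54 with miR-708, which overlapped. MLXIP/MLX moved in opposite directions in the 2 lines: in MCF10A it was between 0.676 and 0.771 in siNT and between 0.884 and 1.26 with the mimics, and in RPE-1 between 3.2 and 3.44 in siNT and between 2.06 and 2.51 with the mimics, without overlap in either line (exact permutation p = 0.1 for each mimic and line). MXD4/MXI1 in RPE-1 was 1.79, 1.6 and 1.63 in siNT and 0.712, 0.761 and 0.848 with miR-708, a fold of 0.461.

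**Figure D4:**
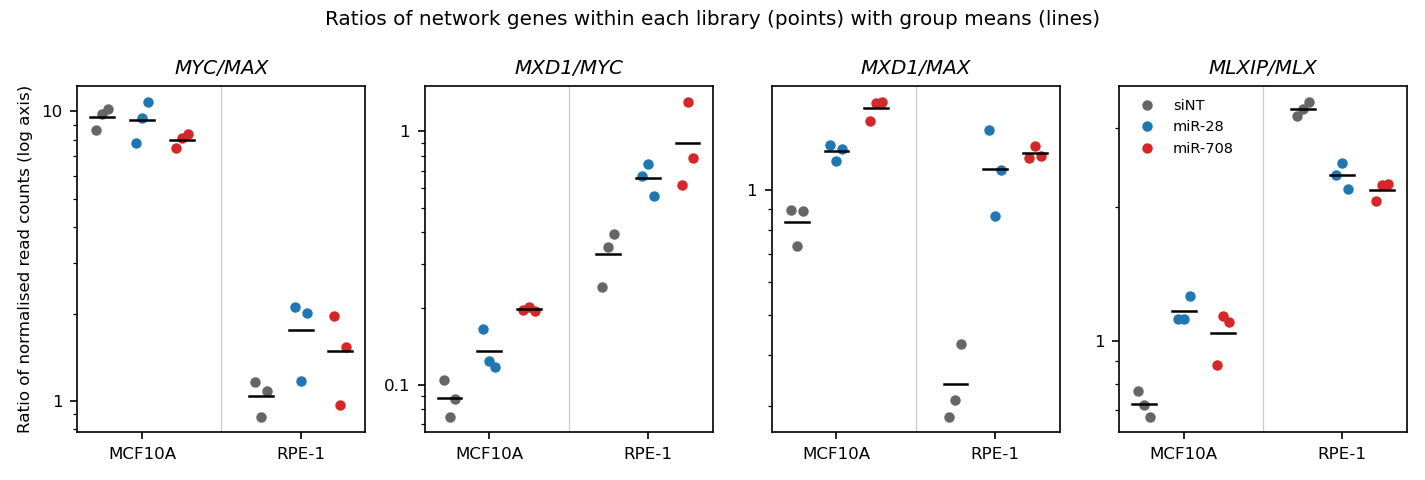
Ratios of normalised read counts of 2 members within a library on a log axis, with 1 point per library for each group and line and lines at the group means. MXD1/MYC was higher in every mimic library than in every siNT library of the same line, and MLXIP/MLX was higher in MCF10A and lower in RPE-1.

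The remaining results concern the genes around the network, from lists named for their known roles. Their counts stand beside the shares of all genes tested that fell and rose, which in MCF10A were 12.0% and 10.7% with miR-28 and 17.3% and 15.5% with miR-708, and in RPE-1 23.5% and 23.3% with miR-28 and 31.2% and 30.9% with miR-708. Without the library rich in ribosomal RNA, the RPE-1 counts with miR-28 became 13 lower for the MYC-activated genes, 3 higher for MYC protein turnover, 1 lower for the SIN3 corepressor and 1 higher for the targets of MLXIP, and the other counts with miR-28 were equal. MYCL was the only other family member with enough reads to be tested, at 3.21 to 13.2 normalised counts in MCF10A siNT, and did not pass in any comparison with siNT.

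Genes known to be activated by MYC, mostly factors of ribosome biogenesis, translation and nucleotide synthesis, were called lower in MCF10A and in both directions in RPE-1. Of 61 genes tested in each line, 15 fell and none rose in MCF10A with miR-28 (24.6% lower, median log2 fold change −0.24), and 26 fell and none rose with miR-708 (42.6% lower, median −0.29). At an unadjusted p under 0.05, 24 and 33 were lower and 0 higher, with no share of all genes at that threshold to set beside them. Library size scaling, which shifted the median of all genes by 0.12 and 0.14, gave 11 lower and 2 higher with miR-28 and 16 lower and 0 higher with miR-708. The count for miR-28 was 9 without siNT replicate 8, and that for miR-708 was 13, 15 and 14 without siNT replicate 8, miR-708 replicate 8 and miR-708 replicate 9. In RPE-1, 14 fell and 11 rose with miR-28 (23.0% and 18%, close to or below the shares of all genes, median 0.03), and 15 fell and 27 rose with miR-708 (24.6% and 44.3%, median 0.27), or 7 and 39 with library size scaling, which shifted the median of all genes there by 0.32. The response was higher in RPE-1 than in MCF10A for 14 of the genes and lower for 1 with miR-28, and higher for 30 and lower for 1 with miR-708. These were 23.0% higher and 1.64% lower with miR-28, and 49.2% and 1.64% with miR-708. Of all genes tested in both lines, 12.1% were higher and 11.3% lower with miR-28, and 20.2% and 19.6% with miR-708.

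PRMT3, a ribosomal protein methyltransferase, was 1969, 2032 and 2167 in MCF10A siNT, 1115, 823 and 874 with miR-28, and 1110, 778 and 698 with miR-708. It fell by 1.14 and 1.28 on the log2 scale (limma adjusted p = 0.00117 and 0.000267). UNG, the uracil-DNA glycosylase of base excision repair, fell in both lines, from between 1204 and 1471 to between 486 and 820 in MCF10A and from between 405 and 712 to between 185 and 384 in RPE-1. At the other end of the genes called with both mimics, DDX18 and PHB fell least in MCF10A (log2 fold changes −0.35 and −0.28, and −0.32 and −0.29). SORD, the sorbitol dehydrogenase, did not pass in MCF10A and rose in RPE-1, from 384, 365 and 470 in siNT to 576, 688 and 692 with miR-28 and 1119, 848 and 1361 with miR-708 (0.68 and 1.43, adjusted p = 0.00729 and 3.85e-05). WDR74, a factor of large ribosomal subunit maturation, rose in RPE-1 from between 269 and 287 to 880, 448 and 448 with miR-28 and between 537 and 554 with miR-708. Its highest value stood in the library rich in ribosomal RNA, and the log2 fold change with miR-28 was 1.02 with that library and 0.70 (limma adjusted p = 0.000564) without it. SLC29A2, a nucleoside transporter, fell in RPE-1 from between 120 and 140 to between 32.5 and 48.0 over the mimic libraries.

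**Figure D5:**
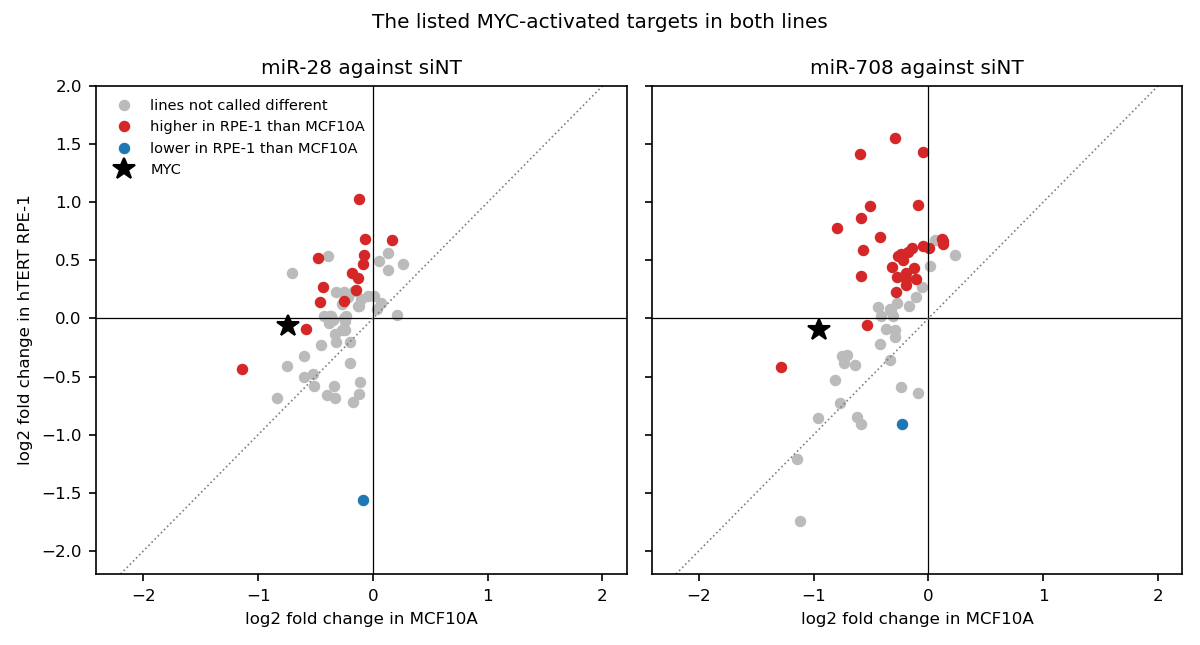
Log2 fold change of each of the 61 MYC-activated genes in MCF10A (horizontal) and RPE-1 (vertical), with a panel for each mimic and colours giving the call of the difference between lines. The star is MYC and the dotted line marks equal responses. In MCF10A the median lay at −0.24 and −0.29, and in RPE-1 at 0.03 and 0.27, for miR-28 and miR-708.

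CACGTG, a palindrome that reads the same on both strands, was searched in the RefSeq window from 250 bases before to 50 bases after each gene start (GRCh38.p14). It was present for 27 of 50 MYC-activated genes with a window (54.0%), 3 of 9 members with a window and 12.3% of tested genes with a window. The members' windows are shown for 30 bases around the match, read along the gene, and capitals mark it.
MXD4: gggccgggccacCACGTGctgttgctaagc
MNT: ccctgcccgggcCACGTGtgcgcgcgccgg
MLX: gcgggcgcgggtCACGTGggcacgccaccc
These lay at chr4:2262330-2262359 on the minus strand, chr17:2401236-2401265 on the minus strand and chr17:42567038-42567067 on the plus strand, with the match beginning at −238, −193 and −50 relative to the start. A match is a description of the sequence and not a site of binding. Among the MYC-activated genes with the sequence in the window, 4 of 27 fell with miR-28 and 7 with miR-708 in MCF10A. Among those without it, 7 and 12 of 23 fell. The split was not tested.

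MYC protein turnover was represented by 12 genes. In MCF10A, 4 fell and 1 rose with miR-28 (33.3% and 8.33%) and 7 fell and 2 rose with miR-708 (58.3% and 16.7%). In RPE-1, 4 fell and 4 rose with miR-28 (33.3% each way) and 5 fell and 5 rose with miR-708 (41.7% each way), and library size scaling turned the MCF10A counts to 1 lower and 2 higher and to 3 lower and 4 higher. GSK3A, one of the kinases that phosphorylate MYC for degradation, was 1457, 1397 and 1364 in MCF10A siNT, between 608 and 772 with miR-28 and between 452 and 681 with miR-708. In RPE-1, it was 1262, 1312 and 1180 in siNT, between 336 and 403 with miR-28 and between 260.5 and 287 with miR-708. Every mimic library was far below siNT, and GSK3A fell by 1.06 and 1.34 on the log2 scale in MCF10A (limma adjusted p = 0.000952 and 0.000112) and by 1.79 and 2.18 in RPE-1 (adjusted p = 1.03e-06 and 1.35e-07). The fall was greater in RPE-1 by 0.72 (adjusted p = 0.00716) and 0.84 (adjusted p = 0.00103), the signed differences being −0.72 and −0.84.

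FBXW7, the ubiquitin ligase subunit that recognises phosphorylated MYC, rose in both lines. It went from 1196, 1287 and 1382 in MCF10A siNT to between 1935 and 2465 over the 6 mimic libraries, and from 828, 763 and 935 in RPE-1 siNT to between 1406 and 1757. The log2 fold changes were 0.79 and 0.82 in MCF10A (limma adjusted p = 0.0016 and 0.000637) and 0.87 and 0.93 in RPE-1 (adjusted p = 0.000139 and 3.84e-05), and the difference between the lines did not pass (adjusted p = 0.777 and 0.613). USP28, a deubiquitinase that opposes FBXW7, fell in MCF10A (−0.41 and −0.35) and rose in RPE-1 (0.38 and 0.52). CIP2A, which inhibits the phosphatase acting on MYC, was 622, 474 and 643 in RPE-1 siNT, 779, 1139 and 827 with miR-28, and 2183, 1795 and 2499 with miR-708. It rose with both (0.65 and 1.90, adjusted p = 0.0112 and 7.67e-06), and for miR-708 the response was higher in RPE-1 than in MCF10A by 1.53 (adjusted p = 1.83e-05).

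Among proteins that bind MYC mRNA or its promoter DNA, 3 of 10 tested fell and none rose in MCF10A with miR-28 (30.0% lower), and 4 fell and 1 rose with miR-708 (40% and 10%). In RPE-1, 1 of 11 fell and 3 rose with miR-28 (9.09% and 27.3%), and 2 fell and 3 rose with miR-708 (18.2% and 27.3%), below the share of all genes that fell and near the share that rose. IGF2BP3, a reader that stabilises its bound mRNAs, was 997, 834 and 1149 in MCF10A siNT, 640, 586 and 634 with miR-28, and 527, 632 and 687 with miR-708. It fell in MCF10A (−0.67 and −0.69, limma adjusted p = 0.00685 and 0.00347), and the response in RPE-1 minus that in MCF10A was 0.81 (adjusted p = 0.0146) and 1.22 (adjusted p = 0.000289). HNRNPD, which binds AU-rich elements, fell in MCF10A too (−0.58 and −0.53). FUBP1, which binds the far upstream element of the MYC promoter, fell in both lines (−0.55 and −0.52, and −0.45 and −0.72). IGF2BP1 (0.50 and 0.39) and CNBP (0.49 and 0.48) rose in RPE-1.

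Of 14 cofactors of MYC, 1 fell with miR-28 and 5 fell and 1 rose with miR-708 in MCF10A, and in RPE-1 6 fell and 1 rose and 5 fell and 3 rose. Its shares were 7.14% and 35.7% lower in MCF10A and 42.9% and 35.7% lower in RPE-1. With library size scaling the last count became 8 higher and none lower, so no direction is given for this list. ZBTB17, the MIZ1 protein through which MYC represses, fell in RPE-1 (−0.56 and −0.60), as did EP400 (−0.25 and −0.25), and SUPT5H rose (0.24 and 0.33).

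Of 14 genes of the SIN3 corepressor that MXD proteins recruit, 1 fell with miR-28 and 3 fell and 1 rose with miR-708 in MCF10A, and in RPE-1 2 fell and 3 rose and 4 fell and 3 rose. The shares that fell, 7.14% and 21.4% in MCF10A and 14.3% and 28.6% in RPE-1, were near or below those of all genes. HDAC1, its deacetylase, fell in both lines. It was 3383, 3367 and 3650 in MCF10A siNT and between 2373 and 2911 over the mimic libraries, and 2492, 2455 and 2724 in RPE-1 siNT and between 1283 and 1768 over the mimic libraries. The log2 fold changes were −0.39 and −0.45 in MCF10A (limma adjusted p = 0.0214 and 0.00761) and −0.55 and −0.84 in RPE-1 (adjusted p = 0.000694 and 1.94e-05). SIN3B fell (−0.38 and −0.54) and ING1 rose (0.50 and 0.78) in RPE-1.

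Of 10 partners of MGA in PRC1.6, 4 fell with miR-28 and 3 with miR-708 in MCF10A and none rose (40% and 30.0% lower). In RPE-1, 3 fell and 3 rose with miR-28 (30.0% each way) and 4 fell and 3 rose with miR-708 (40% and 30.0%), the latter turning to none lower and 5 higher with library size scaling. L3MBTL2, a subunit that compacts chromatin, fell in both lines (−0.40 and −0.61, and −0.54 and −0.60), as did WDR5 (−0.42 and −0.54, and −0.37 and −0.29), which is also counted among the MYC cofactors. CBX3, which is also counted among the MYC-activated genes, fell in MCF10A (−0.46 and −0.42). PCGF6 (0.50 and 0.65) and YAF2 (0.63 and 0.74) rose in RPE-1. Of the germline genes that PRC1.6 silences, 2 of 10 had enough reads to be tested, and neither was called against siNT in MCF10A. In RPE-1, 1 rose with each mimic and the other was not called, with a log2 fold change below 0 for each mimic. SYCE2, a protein of the synaptonemal complex, was 10.4, 21.3 and 8.80 in RPE-1 siNT, between 37.3 and 40.4 with miR-28 and between 35.2 and 39.2 with miR-708, and rose (1.57 and 1.52, limma adjusted p = 0.00236 and 0.00176).

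TXNIP and ARRDC4, the best known targets of MLXIP with MLX, did not pass against siNT in either line (limma adjusted p = 0.0539 to 0.773), and 1 of them, TXNIP, had an unadjusted p under 0.05 with miR-708 in MCF10A and with both mimics in RPE-1. TXNIP was 2406, 3923 and 3236 in RPE-1 siNT, 4015, 7829 and 5009 with miR-28, and 4617, 7782 and 3542 with miR-708, and in MCF10A it was 13671, 9230 and 15778 in siNT, 8348, 11080 and 12402 with miR-28, and 14574, 20741 and 23803 with miR-708. For miR-28 the response in RPE-1 minus that in MCF10A was 1.05 (adjusted p = 0.0499), a call lost under 14 of 27 alternatives. Against siNT, TXNIP with miR-28 in RPE-1 was 0.79 (adjusted p = 0.0539) and passed without the library rich in ribosomal RNA (1.0, adjusted p = 0.0189). Among genes that MYC represses, 2 of 7 tested rose and 1 fell with each mimic in MCF10A (28.6% and 14.3%). In RPE-1, 1 of 8 rose and 1 fell with miR-28 (12.5% each way), and 1 rose and 3 fell with miR-708 (12.5% and 37.5%). NDRG1, a stress and differentiation gene, was the one that fell in MCF10A, from 13318, 13316 and 8458 in siNT to between 3479 and 4380 with miR-28 and between 4988 and 5737 with miR-708. GADD45A, a growth arrest gene, rose in both lines (0.77 and 0.58, and 0.88 and 0.79), and CDKN1B, the p27 inhibitor, rose in MCF10A (0.36 and 0.61). CDKN2B, the p15 inhibitor, was 5693, 8088 and 4945 in RPE-1 siNT, between 2715 and 3856 with miR-28 and between 743 and 1371 with miR-708, and fell by 0.84 and 2.62 on the log2 scale (limma adjusted p = 0.0139 and 6.68e-06).

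The genes whose pattern was most like that of MYC were found by Pearson's r of log2 values over the 18 libraries, centred within each line, among 10233 genes with a mean of at least 100 in both lines. They were C1QBP (r = 0.937), RAN (0.893), NLE1 (0.886), POLA1 (0.876) and AFG3L2 (0.876). The points share libraries and, within a line, the treatment, so r is a description. C1QBP, a mitochondrial matrix protein, was 10409 to 12043 in MCF10A siNT, 7160 to 8151 with miR-28 and 6634 to 8266 with miR-708. Within the 9 libraries of a line, MAX correlated with MYC at 0.916 in MCF10A and −0.012 in RPE-1, and MLX at 0.896 and 0.266. The high values in MCF10A follow the difference between siNT and the mimics that the genes share.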

How the data were processed

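PolyA+ RNAseq of 18 libraries was analysed. Per the labels and the study's methods, the authors trimmed adapters, aligned reads to hg38 with HISAT2 2.1.0, and quantified RefSeq transcripts by expectation maximisation in Partek. The deposited values are a signal: estimated counts per gene each scaled by a size factor from the median of ratios, with each line normalised separately. Other deposited tables hold the authors' own comparisons (fold changes, p-values and group means) and were not used. Members and lists were chosen with earlier results of these data known.

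Genes reaching 10 in at least 3 of 9 libraries of a line were tested on log2(value + 1) with limma 3.58.1 (R 4.3.3), with 3 group means over the 9 libraries, an intensity trend and Benjamini-Hochberg adjustment, called at 0.05. Fold changes are on this scale, which understates those of low genes. Responses of the lines were compared by the difference of their fold changes with combined standard errors, over 13339 genes tested in both. Low values lay on steps of 1 read for 80.2 to 83.8% of values within 0.05 read, and 26.3 to 69.2% did over all values, so no count test was run. Depths are given as the lowest and highest library of a line, without an interval. Genes named from a list were the 2 highest and 2 lowest of those called with both mimics in a line (lists of up to 3 genes in full), by the mean of both fold changes. Some genes that this rule names are not reported here. USP28 in RPE-1 and genes in clauses for the other line were named for comparison after their values were seen. Paralogs such as IGF2BP1 and IGF2BP3 can share reads, and whether strand was used in counting is not given in the sources used here.

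Replicate numbers of MCF10A were taken to pair the mimic libraries with siNT: deviations of same-numbered libraries correlated at 0.111 to 0.302 in all 6 pairs, above a cutoff of 0.1. The numbers came from the labels. In RPE-1 the correlations were 0.021 to 0.151 against siNT, not all above the cutoff, and were not taken as pairing. In both lines each was above those with differently numbered siNT libraries, at −0.201 to 0.11 in MCF10A and −0.119 to 0.04 in RPE-1. Each group was centred on its own mean, so a positive same-numbered value lowers the others, and this contrast is partly built in. Between the mimics the same-numbered values were 0.134 to 0.278 in RPE-1. The main tests used no block, so the main calls and shares in MCF10A do not use the pairing by replicate number. Alternatives were another scaling, pseudocount, filter, no trend, the block, and each library left out.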

Additional observations from a re-analysis of the deposited data

Results flagged for a closer look

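For 4 members with miR-28 and 6 with miR-708, the response differed between RPE-1 and MCF10A by a test of the difference itself. Values are the log2 fold change against siNT in RPE-1 minus that in MCF10A, with adjusted p from the combined limma fits. With miR-28 the difference was 0.68 for MYC (adjusted p = 0.0294), 1.08 for MXD1 (0.000214), −1.11 for MXD3 (0.02) and −0.85 for MLXIP (0.000783). With miR-708 it was 0.85 for MYC (0.00435), 1.09 for MXD1 (5.2e-05), −1.17 for MXD4 (0.000925), 0.41 for MNT (0.0471), 0.51 for MGA (0.0349) and −0.87 for MLXIP (0.000198). Without the RPE-1 library rich in ribosomal RNA, the miR-28 differences were 0.69 for MYC (adjusted p = 0.0409), 1.07 for MXD1 (0.000383), −1.03 for MXD3 (0.0363) and −0.77 for MLXIP (0.00137), and MLX passed as well at 0.42 (0.0414). The MYC difference was known when the network was chosen, so its test is no independent evidence. Groups held 3 libraries, too few to look for single outlying samples.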

How the results depend on the processing

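Library size scaling and the same without ribosomal RNA genes, the latter added after seeing the data, turned the sign of values that did not pass the test under either scaling. They gave, in that order and on the log2 scale, 0.023 and 0.023 for MNT with miR-28 in MCF10A, 0.021 and 0.054 for MYC and 0.037 and 0.071 for MXD4 with miR-28 in RPE-1, and 0.22 and 0.20 for MYC with miR-708 in RPE-1. For miR-708 against miR-28 they gave 0.020 and 0.0052 for MXI1 in MCF10A, and in RPE-1 0.20 and 0.14 for MYC, 0.10 and 0.049 for MXI1, and 0.073 and 0.019 for MLX. Library size scaling alone gave 0.012 for MLXIP with miR-708 in MCF10A. Both scalings called 5 members in MCF10A with miR-708 in place of 3, and 3 and 2 in RPE-1 for miR-708 against miR-28 in place of 1. Library size scaling called 4650 genes there in place of 3084, with 84.8% of them higher in place of 46.5%. The higher share of called genes went from 47.1 to 66.1% and 47.3 to 67.6% in MCF10A and from 49.9 to 59.4% and 49.7 to 71.8% in RPE-1 with miR-28 and miR-708. For miR-708 against miR-28 in MCF10A, 228 genes were called, 150 without the trend and 643 with the replicate block, whose same-numbered libraries correlated at 0.025 to 0.177 in that comparison. Against siNT, the replicate block changed 1 member's call, that of MXD4 with miR-28 in MCF10A. With the block, 2129 genes were higher and 2279 lower in MCF10A with miR-28, in place of 1575 and 1772. With miR-708 they were 2819 and 2999, in place of 2286 and 2549. Without the trend, MXI1 with miR-28 in RPE-1 (adjusted p = 0.0565) and the line differences of MYC with miR-28 (0.0579), MNT (0.0527) and MGA (0.071) with miR-708 were no longer called. The causes were not tested.

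With each library left out in turn, 1949 to 3951 genes were called in MCF10A with miR-28, 3175 to 5483 with miR-708 and 116 to 383 between the mimics. In RPE-1 these were 5493 to 6606, 7969 to 9277 and 1509 to 4083, and for the line differences 2287 to 3460 and 4624 to 5508. Members called were 3 to 5 in MCF10A with miR-28, 1 to 3 between the mimics in RPE-1, and 2 to 5 for the line difference with miR-28. Values that changed sign were those of MGA (−0.11 to 0.18) and MLXIP (−0.0042 to 0.20) with miR-28 in MCF10A, MYC (−0.15 to 0.043) and MXD4 (−0.20 to 0.12) with miR-28 in RPE-1, and MYC (−0.26 to 0.14) and MXD3 (−0.084 to 0.15) with miR-708 in RPE-1. Between the mimics they were MAX (−0.075 to 0.10) and MXI1 (−0.11 to 0.042) in MCF10A and MYC (−0.20 to 0.20), MGA (−0.024 to 0.16) and MNT (−0.093 to 0.074) in RPE-1, and for line differences MAX with miR-28 (−0.31 to 0.085) and MXI1 with miR-708 (−0.032 to 0.16). None of these passed the test with all libraries. The lowest value of a member was 45.1 normalised counts, and 3 reads corresponded to at most 4.40.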
